A study of Mus musculus with 10 samples.

Results

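The complement system was followed through 9 genes of the mouse infundibulum, C3, C4b, C1ra, C1s1, C2, C7, Cfb, Serping1 and Cd55, picked by symbol from the 54256 gene records of the deposited table; each symbol had 1 record. The infundibulum is the funnel at the ovarian end of the oviduct, which takes up the ovulated egg. C57BL/6 mice aged 8 to 10 weeks received saline or recombinant murine prolactin (rmPRL) for 7 days, and RNA of the whole tissue was sequenced. There were 5 libraries per group, each made from a pool of 4 infundibula taken from 2 animals. The cycle stage given was diestrus for rmPRL library 2 and proestrus for the other 9. The labels call the saline animals WT and name no transgene or deletion in either group. The comparison asks how transcript levels of the infundibulum differed after prolactin. Because whole tissue was used, fewer cells of a type and less RNA per cell cannot be told apart, and differences between single animals cannot be seen within a pool.

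Complement is a cascade of serum proteins that marks surfaces for uptake and, at its end, forms a pore in membranes. In the classical route, C1q binds a surface together with its partner proteases C1r and C1s. C1s then cuts C4 and C2, which together form an enzyme that cuts C3. In the alternative route, factor B takes the place of C2. Serping1 and Cd55 are brakes: the first blocks C1r and C1s, and the second breaks up the enzymes that cut C3. The liver makes most serum complement, but epithelial cells, fibroblasts and macrophages make components locally. In the rodent uterus C3 is a classical estrogen-induced secreted protein, and in the human oviduct a fragment of C3 has been described as a factor that supports embryo growth.

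The values are TPM, levels corrected for transcript length and scaled to a common total, so levels of different genes can be set side by side, while each library's depth is not kept. The tissue's own markers were present in every library: Ovgp1, the glycoprotein of oviduct secretory cells, lay between 4923 and 10134 TPM, and Foxj1, the regulator of motile cilia, between 552 and 821 TPM. Markers of neighbouring tissue varied between libraries. Cyp11a1, which starts ovarian steroid synthesis, reached 135 TPM in saline library 4 and 125 TPM in library 2 of the rmPRL group, and no more than 6.27 TPM in the other 8 libraries. Alb, the liver's albumin, was at 38.5 TPM in saline library 2 and at most 0.546 TPM elsewhere, with 4 of the other 6 genes of the hepatocyte list, Ttr, Serpina1a, Fgb and Ahsg, also highest there. Summed fibroblast and matrix markers (16 of 16 detected, none at 0) ran from 709 to 1809 TPM in saline and from 1146 to 2555 TPM in rmPRL. Summed macrophage and monocyte markers (13 of 13 detected) ran from 116 to 202 TPM in saline and from 147 to 237 TPM in rmPRL. Both sums were lowest in saline library 3 and highest in rmPRL library 5.

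None of the 9 complement genes passed the test for a difference between rmPRL and saline. C3 was by far the most abundant member, followed by the brakes Cd55 and Serping1 and the protease C1s1. C1ra, C2, C4b and Cfb were lower, and C7 was the lowest. Means over the 10 libraries were 291 TPM for C3, 149 TPM for Cd55, 103 TPM for Serping1, 73.6 TPM for C1s1, 20.2 TPM for C1ra, 12.6 TPM for C2, 11.1 TPM for C4b, 7.22 TPM for Cfb and 0.569 TPM for C7. C3 ranked 451 by mean level among the 16131 genes tested. The ranges of C3 and Cd55, of C1s1 and C1ra, and of Cfb and C7 did not overlap over the 10 libraries. C2 and C4b could not be put in order, since C2 was the higher in 5 of the 10 libraries. Cd55 lay above Serping1 in 9 libraries, with rmPRL library 2 the exception. Cd55 was also the steadiest member, with a coefficient of variation of 7.42% over all libraries, against 15.8% for C3 and 40.9% for C2.

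**Figure D1:**
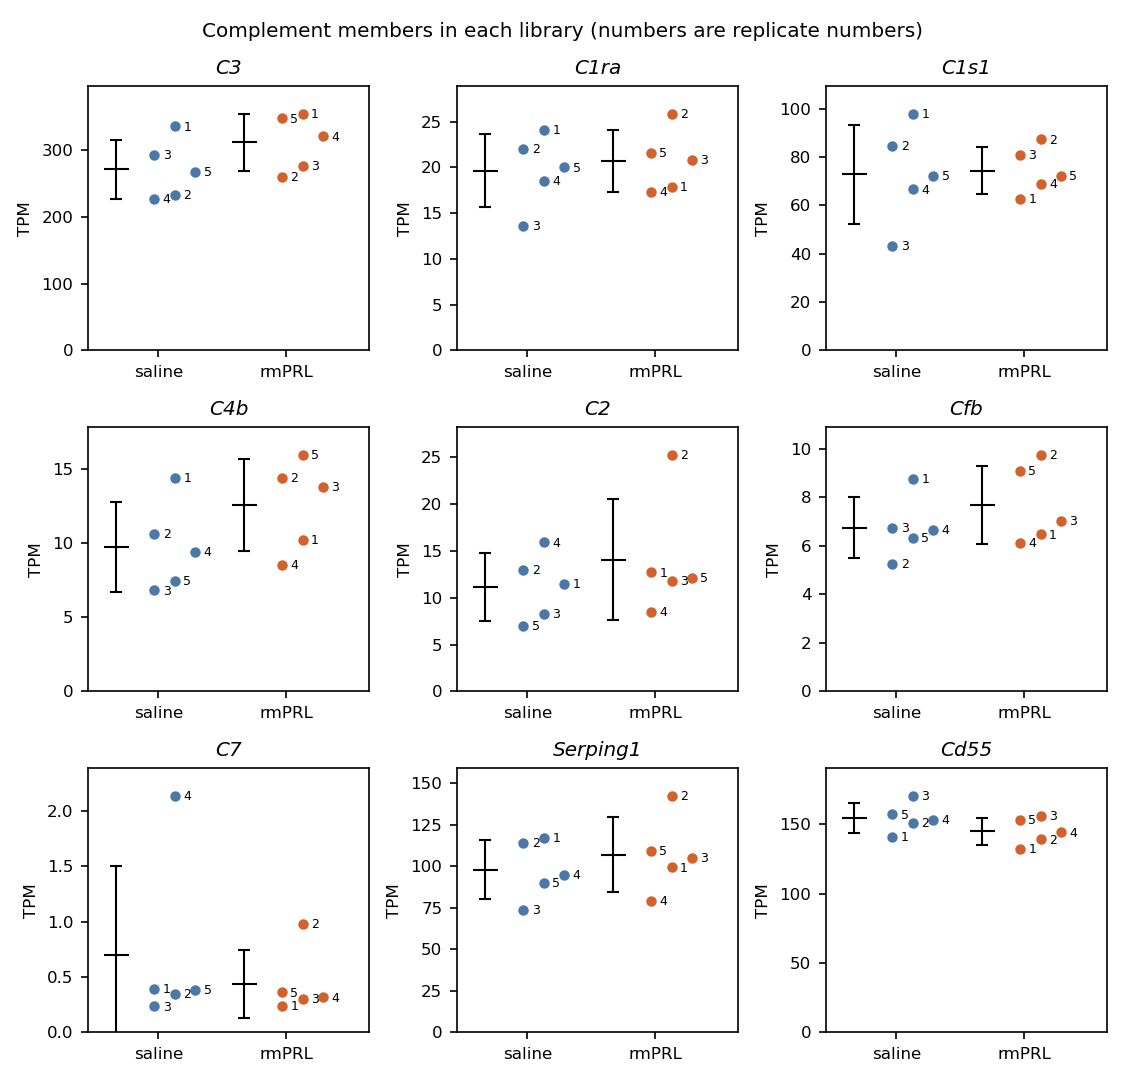
Level of each of the 9 complement genes in TPM (vertical axes, linear from 0) in the 5 saline and 5 rmPRL libraries; points are libraries with their replicate numbers, and bars are the mean ± SD of each group, with the bar of C7 in saline cut at 0. The groups overlap for every gene, and rmPRL library 2 is the highest for C1ra, C2, Cfb and Serping1.

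At an adjusted p under 0.05, 0 of the 8 members that could be tested passed, where 0.0248% of all 16131 tested genes did (limma on log2(TPM + 1), Benjamini-Hochberg over all genes, two-sided). At an unadjusted p under 0.05 the count was also 0 of 8, where 16.0% of all tested genes had such a p. The groups overlapped for all 9 members, and they did not overlap for 3.07% of tested genes. Of the 8, 7 had a higher mean in rmPRL, against 43.5% of all tested genes. Their median log2 difference was 0.14, where the median of all tested genes was -0.026. Without both libraries with high Cyp11a1 the same figures were 5 of 8 and 0.043, without saline library 3 they were 5 of 8 and 0.095, and without rmPRL library 2 alone they were 7 of 8 and 0.034. With the fibroblast and matrix markers as a covariate 4 of 8 were higher (median log2 difference -0.018), and with the macrophage and monocyte markers 2 of 8 were (median -0.092). The ninth member, C7, reached 1 TPM in saline library 4 alone and did not meet the filter of 1 TPM in at least 5 libraries.

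C3 is the protein on which all routes converge, and its fragments coat surfaces. C3 (ENSMUSG00000024164.15, GRCm38 chromosome 17, 57203970 to 57228136, minus strand) was at 335, 233, 292, 227 and 267 TPM in saline libraries 1 to 5 and at 353, 259, 276, 320 and 347 TPM in rmPRL libraries 1 to 5. The groups overlapped widely, although 4 of the 5 rmPRL libraries lay above the saline median. The means were 271 ± 44.5 TPM with saline against 311 ± 42.0 TPM with rmPRL (mean ± SD, 5 libraries per group). The log2 difference was 0.20 (SE 0.122, 95% interval from -0.065 to 0.47, limma, adjusted p = 0.413). It ran from 0.14 to 0.28 over all alternatives. In the library with the high liver marker, saline 2, C3 was the second lowest of the 10. C3 was lowest in saline library 4, where the steroid-making markers were high and C2 and C7 had the highest values of their group.

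C1ra and C1s1 encode the protease pair of the C1 complex, and they lie close together on chromosome 6, transcribed toward each other. C1ra (ENSMUSG00000055172.10, GRCm38 chromosome 6, 124512405 to 124523443, plus strand) was at 24.1, 22.0, 13.6, 18.5 and 20.0 TPM in saline and at 17.9, 25.8, 20.8, 17.3 and 21.6 TPM in rmPRL. C1s1 (ENSMUSG00000038521.17, 124530345 to 124542359, minus strand) was at 97.7, 84.6, 43.4, 66.6 and 72.2 TPM in saline and at 62.7, 87.3, 80.8, 69.0 and 72.3 TPM in rmPRL. Saline library 3 was the lowest of all 10 for both genes, and the saline libraries spanned a wider range than the rmPRL libraries. The C1ra level stayed between 24.7% and 31.3% of the C1s1 level in every library. The log2 difference of C1ra was 0.080 (SE 0.148, 95% interval from -0.25 to 0.41, limma, adjusted p = 0.806). That of C1s1 was 0.069 (SE 0.186, 95% interval from -0.34 to 0.48, limma, adjusted p = 0.873). Without saline library 3, whose fibroblast and macrophage sums were also the lowest, these differences were -0.040 and -0.10. The copies C1rb and C1s2 made up at most 0.525% and 1.29% of the summed levels, and the sums differed by 0.079 and 0.065 on the log2 scale (two-sided exact permutation tests, p = 0.643 and 0.802, adjusted over 4 sums 0.802 for both). Gm16567, annotated on the opposite strand, shares 576 exonic bases with C1s1 and was at most 0.115 TPM.

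The promoter windows of both proteases, which varied together, are shown with those of C3, the most abundant member, and C7, the least abundant. Each runs from 250 bases before to 50 bases after the RefSeq start on GRCm38.p6 and is written in the gene's own direction. Windows were matched for 5 of the 9 members, C3, C1ra, C1s1, C7 and Cd55. Capitals mark TTCNNNGAA, the palindromic core to which STAT factors, the transducers of prolactin, bind.
C1ra, chr6:124512371-124512670, plus strand: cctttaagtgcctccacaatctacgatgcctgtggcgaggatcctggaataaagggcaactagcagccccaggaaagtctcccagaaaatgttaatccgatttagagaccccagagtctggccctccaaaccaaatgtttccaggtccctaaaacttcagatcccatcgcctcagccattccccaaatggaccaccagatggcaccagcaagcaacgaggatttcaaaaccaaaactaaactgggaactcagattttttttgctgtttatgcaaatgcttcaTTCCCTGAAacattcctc
C1s1, chr6:124542310-124542609, minus strand: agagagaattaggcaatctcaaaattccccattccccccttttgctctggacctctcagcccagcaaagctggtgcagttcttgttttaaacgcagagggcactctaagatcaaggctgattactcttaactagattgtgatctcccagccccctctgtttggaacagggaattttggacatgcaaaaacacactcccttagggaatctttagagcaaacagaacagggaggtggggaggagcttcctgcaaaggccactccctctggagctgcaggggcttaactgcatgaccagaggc
C3, chr17:57228087-57228386, minus strand: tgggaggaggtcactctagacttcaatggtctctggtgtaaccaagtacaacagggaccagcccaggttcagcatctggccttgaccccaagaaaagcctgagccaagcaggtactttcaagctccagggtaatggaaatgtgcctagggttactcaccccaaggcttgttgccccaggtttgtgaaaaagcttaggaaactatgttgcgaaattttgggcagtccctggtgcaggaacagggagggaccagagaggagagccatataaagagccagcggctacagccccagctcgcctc
C7, chr15:5063724-5064023, minus strand: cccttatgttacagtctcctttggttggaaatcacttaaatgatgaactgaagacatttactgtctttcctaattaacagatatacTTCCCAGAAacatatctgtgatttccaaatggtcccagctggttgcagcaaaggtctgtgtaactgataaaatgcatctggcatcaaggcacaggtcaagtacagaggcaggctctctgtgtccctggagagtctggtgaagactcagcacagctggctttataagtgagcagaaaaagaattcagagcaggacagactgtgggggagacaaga

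TTCNNNGAA occurred once in the window of C1ra, from base 283 and thus after the RefSeq start, and once in that of C7, from base 87 and thus before the start. In the gene coordinates given above C1ra begins at 124512405, before its RefSeq start, so most of its window lies inside the gene. TTCNNNGAA was found in 8.30% of the 32851 promoter windows of the RefSeq table. The letters were not found in the windows of C3, C1s1 or Cd55. GAAA followed after any 2 bases by another GAAA, the repeat bound by interferon regulatory factors (searched on both strands, in 3.44% of all windows), and the NF-kappaB motif (5.89%) were in none of the 5 members' windows. These matches describe letters only, and neither C1ra nor C7 passed a test between the groups.

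Serping1 encodes the C1 inhibitor, which blocks C1r and C1s. It was at 117, 114, 73.7, 94.7 and 90.1 TPM in saline and at 99.2, 142, 105, 79.3 and 109 TPM in rmPRL. As for the proteases, saline library 3 was the lowest and rmPRL library 2 was high. The means were 98.0 ± 18.0 and 107 ± 22.7 TPM (mean ± SD, 5 libraries per group), and the log2 difference was 0.12 (SE 0.158, 95% interval from -0.22 to 0.47, limma, adjusted p = 0.714). It was 0.015 without rmPRL library 2, 0.026 without saline library 3, 0.19 without saline library 1 and 0.22 without rmPRL library 4. Serping1 (ENSMUSG00000023224.12) lies on chromosome 2 from 84765387 to 84775444 on the minus strand, away from the genes it acts on, and no other gene of the annotation overlaps it.

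C4b and C2 supply the parts of the classical enzyme that cuts C3. C4b was at 14.4, 10.6, 6.80, 9.40 and 7.43 TPM in saline and at 10.2, 14.4, 13.8, 8.51 and 15.9 TPM in rmPRL. It had the largest log2 difference of the 8 tested members, 0.35 (SE 0.205, 95% interval from -0.10 to 0.80, limma, adjusted p = 0.406), with 4 of 5 rmPRL libraries above the saline median. The groups nevertheless overlapped, and the difference was -0.089 with the macrophage and monocyte markers as a covariate. Those markers include Lyz2, whose pattern over the libraries was among the closest to that of C4b. C4b (ENSMUSG00000073418.4, chromosome 17, 34728380 to 34743882, minus strand) has a close copy, C4a, and 16.5% of the 100-base windows of its longest transcript also occur in C4a. C4a held between 13.5% and 36.4% of the summed level. The sum averaged 12.5 ± 3.12 TPM with saline against 15.8 ± 2.56 TPM with rmPRL (mean ± SD, 5 libraries per group; log2 difference 0.33, two-sided exact permutation test, p = 0.103, adjusted over 4 sums 0.397).

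C2 stood apart in a single library. C2 (ENSMUSG00000024371.14, chromosome 17, 34862604 to 34898265, minus strand) was at 11.5, 13.0, 8.31, 15.9 and 7.02 TPM in saline and at 12.7, 25.2, 11.8, 8.50 and 12.1 TPM in rmPRL. Its highest and second highest values were in rmPRL library 2 and saline library 4, the libraries with high Cyp11a1. The log2 difference was 0.28 (SE 0.271, 95% interval from -0.32 to 0.87, limma, adjusted p = 0.620), and leaving out rmPRL library 2 gave 0.054, saline library 5 0.14. The part of the ovarian markers in this was not tested.

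Cfb, factor B of the alternative route, lies directly beside C2 on chromosome 17. Cfb (ENSMUSG00000090231.10, chromosome 17, 34856374 to 34862518, minus strand) was at 8.76, 5.27, 6.75, 6.66 and 6.31 TPM in saline and at 6.47, 9.73, 7.04, 6.12 and 9.08 TPM in rmPRL. The group means were 6.75 ± 1.27 and 7.69 ± 1.62 TPM (mean ± SD, 5 libraries per group), with a log2 difference of 0.16 (SE 0.146, 95% interval from -0.16 to 0.48, limma, adjusted p = 0.591). It was 0.079 without rmPRL library 2, 0.087 without saline library 2, 0.10 without rmPRL library 5 and 0.25 without saline library 1. Unlike the ratio of C1ra to C1s1, that of Cfb to C2 was loose, from 38.6% in rmPRL library 2 to 89.9% in saline library 5. Both genes share exons with Gm20547, a record on the same strand that spans them and contains 79.5% of the exonic bases of Cfb and 42.8% of those of C2. Gm20547 itself was at most 0.274 TPM, and the sources used here do not give how reads in shared exons were assigned. C2 also shares 161 exonic bases with Zbtb12 on the opposite strand, which was at 22.1 to 30.8 TPM, and without the strand setting reads of that stretch cannot be told apart.

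Cd55, the membrane-anchored decay-accelerating factor, was the only tested member with a lower mean in rmPRL. Cd55 (ENSMUSG00000026399.12, chromosome 1, 130439027 to 130462744, minus strand) was at 141, 151, 170, 153 and 157 TPM in saline and at 132, 139, 156, 144 and 153 TPM in rmPRL. Only 1 rmPRL library lay above the saline mean, but the groups overlapped and the log2 difference was -0.092 (SE 0.0657, 95% interval from -0.24 to 0.052, limma, adjusted p = 0.485). Among the members its interval was the narrowest. It was -0.056 without saline library 3 and -0.059 without rmPRL library 1. Saline library 3 was the highest for Cd55 and the lowest for Serping1, but the pair did not pass the correlation test (r = -0.52, adjusted permutation p = 0.301 over 10 libraries) and had r = -0.02 without saline library 3 and rmPRL library 2. The copy Cd55b was at most 0.989% of the summed level, which differed by -0.093 on the log2 scale (two-sided exact permutation test, p = 0.198, adjusted over 4 sums 0.397). Gm16083, on the opposite strand, shares 2.10% of the exonic bases of Cd55 and was at most 2.56 TPM.

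C7 (ENSMUSG00000079105.4, chromosome 15, 4988762 to 5063740, minus strand), a subunit of the membrane pore, was listed at 0.393, 0.350, 0.235, 2.13 and 0.382 TPM in saline and at 0.237, 0.982, 0.301, 0.316 and 0.361 TPM in rmPRL. The libraries with high Cyp11a1 again stood highest, saline 4 first and rmPRL 2 second, and the other 8 lay at or under 0.393 TPM. The log2 difference was -0.16 (two-sided exact permutation test over 252 assignments, p = 0.579, smallest possible 0.00794). It was 0.082 without saline library 4 and -0.28 without rmPRL library 2.

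**Figure D2:**
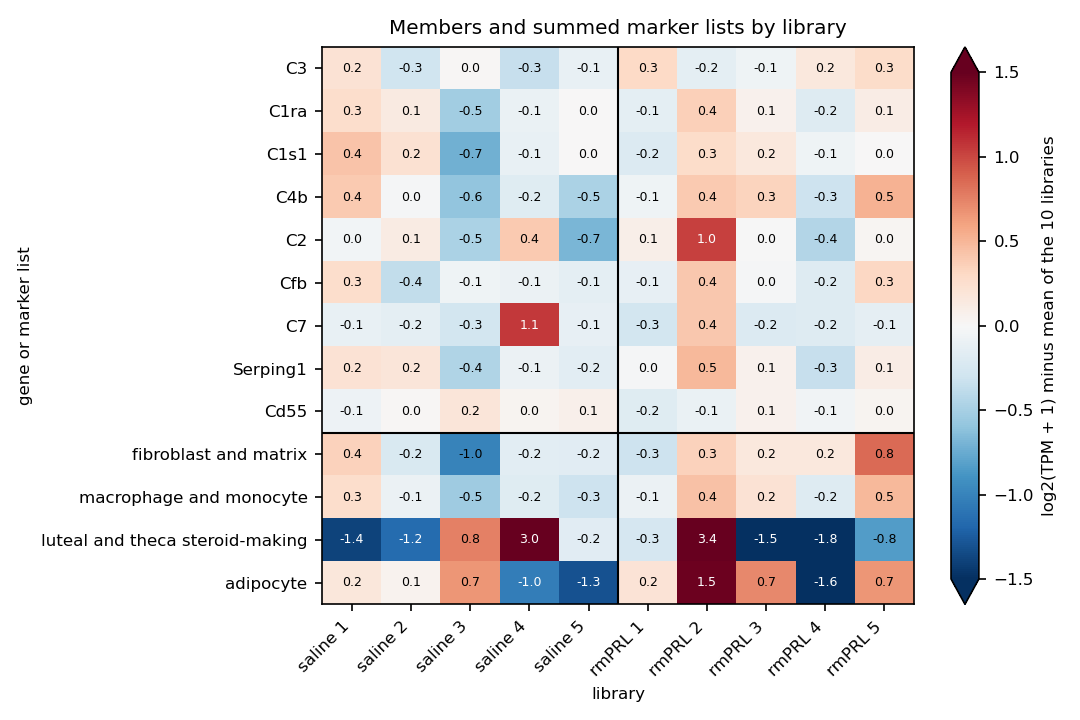
Deviation of log2(TPM + 1) from the mean of the 10 libraries for each complement gene (upper rows) and for the summed TPM of 4 marker lists (lower rows); columns are libraries and colours are cut at 1.5. C7 and C2 are highest where the luteal and theca list is high, and C1ra, C1s1, C4b and Serping1 are lowest in saline library 3, where the fibroblast and macrophage lists are lowest.

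The members did not vary as a single group. C1ra, C1s1, Serping1 and C4b went up and down together across the libraries, except that the pair C1s1 and C4b missed the threshold, and no pair with C3 or Cd55 passed it. Of the 36 pairs of members, 6 correlated at an adjusted p under 0.05 (Pearson r of log2(TPM + 1) over 10 libraries, permutation test with 100000 resamples, two-sided, Benjamini-Hochberg over 36 pairs). All 6 lay among C1ra, C1s1, Serping1, C4b and C2, and 5 of them also passed by Spearman rho; the exception was C2 with Serping1. C1ra and C1s1 had r = 0.94 and rho = 0.94 (permutation p = 0.000160 and 0.000190, adjusted 0.00432 and 0.00342), and r = 0.89 without saline library 3 and rmPRL library 2, which lay farthest from the median. C1ra and Serping1 had r = 0.93 and rho = 0.95 (permutation p = 0.000240 and 8.00e-05, adjusted 0.00432 and 0.00288), and r = 0.85 without the same libraries. C4b and Serping1 had r = 0.84 and rho = 0.89 (permutation p = 0.00232 and 0.00117, adjusted 0.0278 and 0.0140), and r = 0.82 without saline library 3 and rmPRL library 5.

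Of the remaining 3 pairs, C1s1 with Serping1 and C4b with C1ra each had r = 0.80 (adjusted permutation p = 0.0417 and 0.0400), and C2 with Serping1 had r = 0.79 (adjusted permutation p = 0.0428). Only C1ra with C1s1 and C1ra with Serping1 passed without both libraries with high Cyp11a1, without saline library 1 or without saline library 3. C1ra and Serping1 lie on different chromosomes. C3 had r between -0.35 and 0.34 with the members other than C7. The values of C7 formed separate clusters of 2 and 8 libraries, so its pooled correlations cannot be read. All members share the same libraries and the fixed TPM total, and the pairs were computed with earlier results of these data known. The share of such pairs among all tested genes was not computed, so the correlations cannot be called particular to these members.

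**Figure D3:**
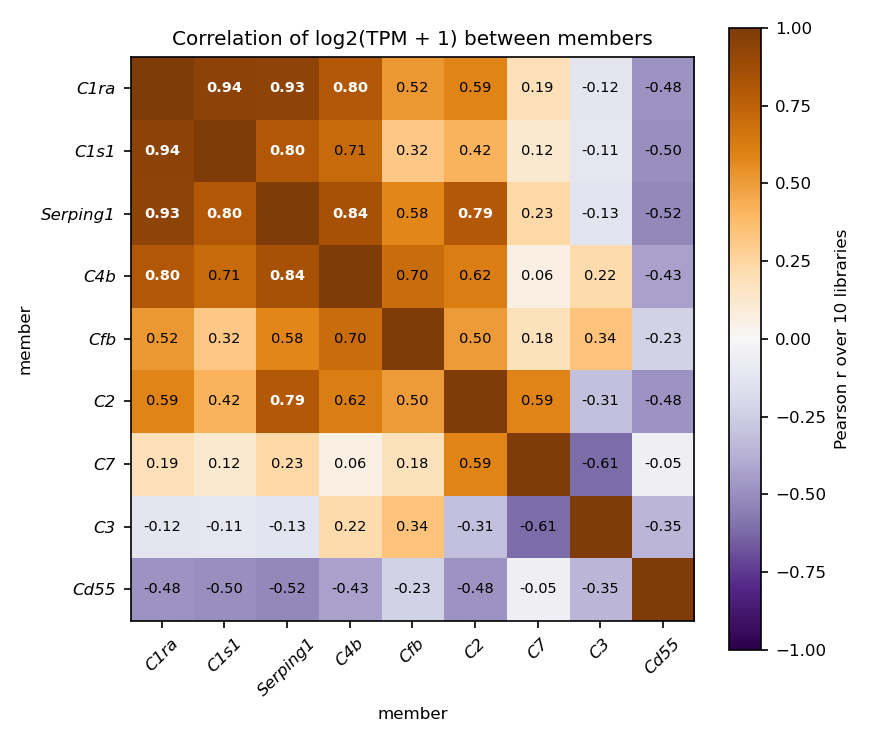
Pearson correlation of log2(TPM + 1) between members over 10 libraries; both axes list the 9 genes, colours run from -1 to 1, and bold numbers mark the 6 pairs with an adjusted permutation p under 0.05. C1ra, C1s1, Serping1 and C4b form a block of high values, with C1s1 and C4b at 0.71, while C3 and Cd55 stand outside it.

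The tested genes whose pattern was most like each member were named as a description, by the highest r over 10 libraries among the 16131 tested genes, leaving out the other members and entries with only a clone or model name or annotated as pseudogenes. For C4b they were Lyz2, the lysozyme of macrophages (r = 0.980, rho = 0.988), and Tyrobp, a signalling adaptor of myeloid cells (r = 0.972, rho = 0.976). For C1ra they were Lmo2, a transcription cofactor of blood and endothelial cells (r = 0.962, rho = 0.867) and Mmp2, a matrix metalloproteinase (r = 0.936, rho = 0.879). Lmo2 also headed the list for C1s1 (r = 0.973, rho = 0.903), followed by Lag3, an inhibitory receptor of T cells (r = 0.965, rho = 0.903). For Serping1 they were Igfbp6 (r = 0.941, rho = 0.988) and Ms4a4d (r = 0.928, rho = 0.939). For C2 they were Polr3g (r = 0.944, rho = 0.952) and Heyl (r = 0.936, rho = 0.867). None are given for C7, whose pooled values cannot be read. Those for Cfb were Wdr3 and Lactb (r = 0.942 and 0.927), those for C3 were Rhbdl2 and Blvra (r = 0.888 and 0.880), and those for Cd55 were Nedd9 and Lrp11 (r = 0.966 and 0.947). C3 thus had the lowest best match of these 8 members. The highest of 16131 r values over 10 libraries can be high without a link between the genes. The source cells of the members were not tested.

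The rest of the complement system was read from a list of 49 other components, regulators and receptors, of which 26 could be tested. Of these, 0 passed at an adjusted p under 0.05 (limma). At an unadjusted p under 0.05, 6 were higher in rmPRL, where 6.14% of all tested genes were, and 1 was lower, where 9.91% were. The 6 were C1qa, C1qb, C1qbp, Cfp, C3ar1 and C5ar1, and the 1 was Cfi. The count of 7 rose to 9 without saline library 1. It fell by over 1.5 times without some other single libraries. It was 3 without saline library 2, saline library 3 or rmPRL library 2, 4 without saline library 4 and 2 without rmPRL library 5. Without both libraries with high Cyp11a1 it was 1. It was 0 with the mean log2(TPM + 1) of either marker list, that of macrophages and monocytes or that of fibroblasts and matrix, as a covariate. Over all 16131 tested genes the count with such a p also moved. It was 2588 with all libraries, 3693 without saline library 1 and 1730 without rmPRL library 5.

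Of the recognition molecules, the C1q chains were well expressed and had higher means in rmPRL. C1qa averaged 51.4 ± 13.5 TPM with saline against 68.9 ± 9.43 TPM with rmPRL (mean ± SD, 5 libraries per group), with all 5 rmPRL libraries above the saline median and a difference of 0.44 on the log2 scale (SE 0.152, limma, adjusted p = 0.230). C1qb was at 49.3 ± 13.4 and 63.8 ± 12.1 TPM and C1qc at 32.9 ± 8.09 and 38.9 ± 5.24 TPM (mean ± SD, 5 libraries per group), with adjusted p = 0.306 and 0.390 (limma). In tissues the C1q chains are made mainly by macrophages. With the macrophage and monocyte markers as a covariate the log2 difference of C1qa was 0.11, that of C1qb -0.000567 and that of C1qc -0.067. With the fibroblast and matrix markers instead, the differences were 0.21, 0.12 and 0.044. The part of either cell type in these differences was not tested. Masp1, a protease of the lectin route, was between 0.229 and 1.43 TPM, with its highest values in the libraries with high Cyp11a1. Whether the C1q chains and the proteases they carry differed in their response was not tested.

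Alternative-route genes other than Cfb were unevenly expressed. Cfd, adipsin, which cuts factor B and is made largely by fat cells, ranged from 9.66 to 54.6 TPM in saline and from 9.78 to 152 TPM in rmPRL (log2 difference 0.83, SE 0.715, limma, adjusted p = 0.569). The difference was 0.45 without rmPRL library 2, 0.47 without saline library 5, 1.41 without rmPRL library 4 and 0.23 without both libraries with high Cyp11a1. Adipoq, a fat cell hormone, ranged with it, from 2.09 to 13.3 TPM and from 1.27 to 29.0 TPM. Both were lowest in saline library 5 and rmPRL library 4 and highest in rmPRL library 2. The part of fat cells in the values of Cfd was not tested. Cfp, properdin, which stabilizes the alternative enzyme and is made by myeloid cells, was at 10.4 ± 1.85 and 12.7 ± 1.34 TPM (mean ± SD, 5 libraries per group; log2 difference 0.28, limma, adjusted p = 0.279).

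Among regulators, Clu, the abundant chaperone clusterin that also blocks the pore, averaged 528 ± 112 TPM with saline against 423 ± 91.6 TPM with rmPRL (mean ± SD, 5 libraries per group; log2 difference -0.32, limma, adjusted p = 0.370), a higher level than that of C3. Cfi, factor I, which inactivates C3b, was at 45.8 ± 9.81 and 33.9 ± 10.3 TPM (mean ± SD, 5 libraries per group; log2 difference -0.45). Summed secretory epithelium markers ran from 8270 to 11117 TPM in saline and from 5703 to 9950 TPM in rmPRL. Of these markers 6 of 6 were detected, none at 0. Ovgp1 made up most of that sum and had a log2 difference of -0.41 (limma, adjusted p = 0.306). Krt7 differed by 0.019 on the log2 scale, and Pax8, Epcam, Krt8 and Wfdc2 by -0.20, -0.19, -0.14 and -0.12. In rmPRL libraries 2, 4 and 5 Cfi was at 25.6, 26.7 and 27.6 TPM and Ovgp1 at 4923, 5198 and 5432 TPM. For each of these genes they were the lowest 3 values of the 10 libraries. The same held for Epcam, at 225, 245 and 248 TPM. It did not hold for the other listed markers, Pax8 (52.3, 91.4 and 74.9 TPM), Wfdc2 (69.8, 109 and 88.4 TPM), Krt7 and Krt8. Clu was at 520, 303 and 380 TPM in the same libraries, the first above its saline median of 506 TPM. The part of these markers in the values of Cfi and Clu was not tested. The difference of Clu was -0.21 without rmPRL library 4. Cd59a, which blocks the pore on cell surfaces, was at 18.9 ± 1.95 and 17.8 ± 2.73 TPM (mean ± SD, 5 libraries per group), and Cd46 was at 4.25 ± 0.546 and 3.87 ± 0.716 TPM (mean ± SD, 5 libraries per group). Vtn, vitronectin, was at 3.12 ± 0.969 and 3.07 ± 0.424 TPM (mean ± SD, 5 libraries per group). None of these regulators passed the adjusted threshold.

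Among genes of the pore and its assembly, Hc, the mouse C5, was at most 0.522 TPM, C6 at most 0.404 TPM and C9 at most 0.195 TPM. C8g, the small chain of C8, was higher, at 3.43 ± 0.562 TPM with saline against 2.74 ± 0.382 TPM with rmPRL (mean ± SD, 5 libraries per group; log2 difference -0.24, limma, adjusted p = 0.324). The paralogs C1rb and C1s2 reached no more than 0.123 and 1.08 TPM. The receptors for the small cleavage fragments were low, with C3ar1 at 1.91 ± 0.428 and 2.64 ± 0.522 TPM (mean ± SD, 5 libraries per group; log2 difference 0.32, limma, adjusted p = 0.274). C5ar1 was at 1.03 ± 0.385 and 2.22 ± 1.49 TPM (mean ± SD, 5 libraries per group; log2 difference 0.58, limma, adjusted p = 0.310), and without rmPRL library 5, which held its highest value of 4.72 TPM, the log2 difference was 0.35. C1qbp, a mitochondrial protein that binds C1q, was at 73.6 ± 7.97 and 89.5 ± 8.83 TPM (mean ± SD, 5 libraries per group; log2 difference 0.28, limma, adjusted p = 0.212).

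**Figure D4:**
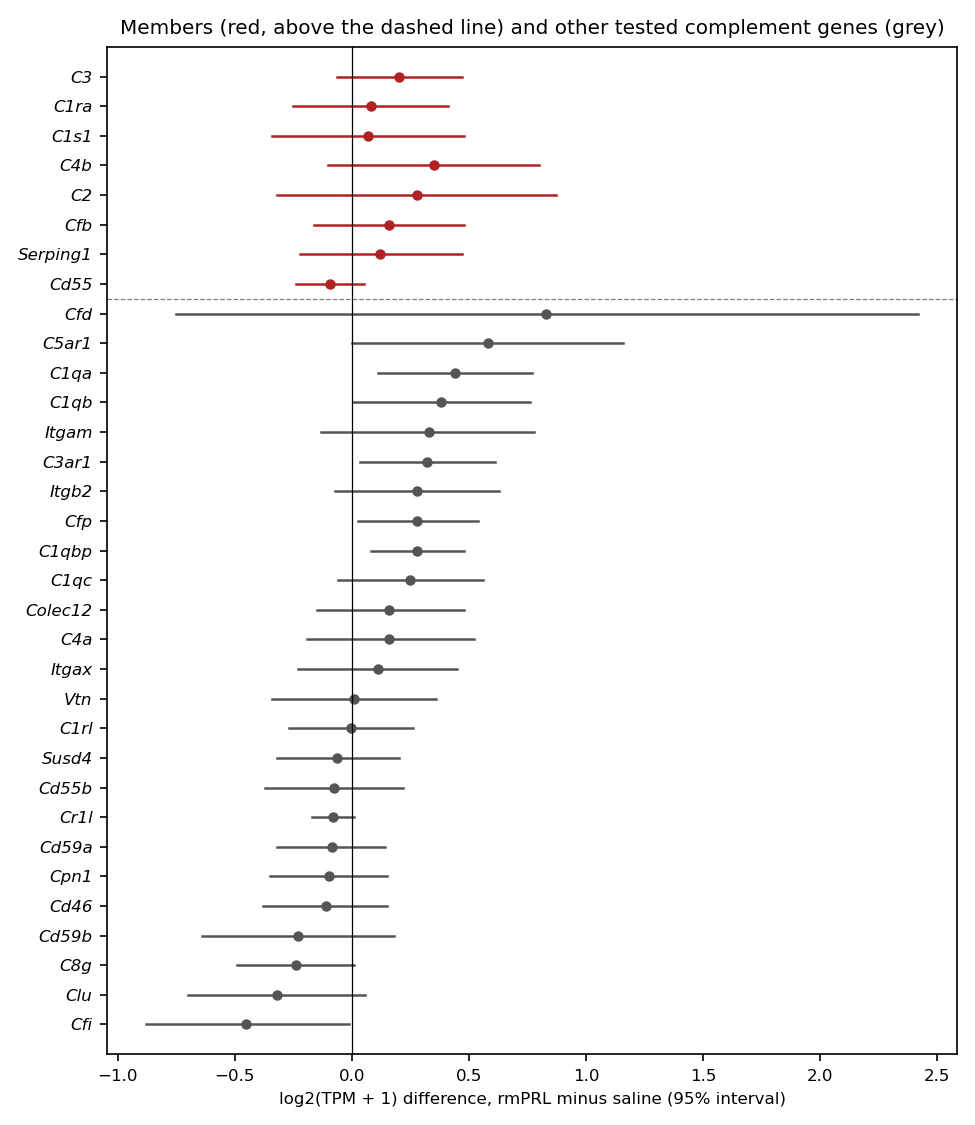
Difference of log2(TPM + 1), rmPRL minus saline, with its 95% interval from limma (horizontal axis), for the 8 tested members (red) and 25 of the 26 other tested complement genes (grey). The intervals of all 8 members cross 0, and those of C2 and, among the other genes, Cfd are wide.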

How the data were processed

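RNA from 10 libraries (5 saline, 5 rmPRL) was prepared with a stranded mRNA kit, per the labels' protocols. Trimmomatic, HISAT2 (on mm10) and featureCounts are the trimming, alignment and counting tools named in the submitters' processing notes and design text. The authors deposited TPM values for 54256 genes. Not given in the sources used here are their scaling, the annotation and the strand setting. Since depth is lost in TPM, the counting error is unknown and a count model was not run.

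The 16131 genes that reached 1 TPM in 5 or more libraries were tested in R 4.3.3 with limma 3.58.1 on log2(TPM + 1), with trend and robust estimation, group as the only term and Benjamini-Hochberg adjustment over all genes. The pseudocount understates changes of low genes. The fit was tested on simulated data. As a covariate, a marker list entered as the mean log2(TPM + 1) of its tested genes. Alternatives changed pseudocount, filter, scaling (TMM unweighted), weights, covariates and libraries. Single values were compared with exact permutation tests. Coordinates are from GENCODE vM21 (GRCm38, the same assembly as mm10); all 9 identifiers matched with their versions. No 2 libraries held identical values.

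The members, marker lists, pathway list, tests and alternatives were chosen with earlier results of these data known. Named were all members, 20 listed complement genes, up to 6 others of that list with the smallest unadjusted p under 0.05, the 2 best matches of each member (not given for C7), leading markers and overlapping genes. One listed complement gene is counted but not reported here. Cyp11a1, Alb, Ttr, Serpina1a, Fgb, Ahsg, Foxj1, Adipoq and C8g were chosen after their values were seen.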

Additional observations from a re-analysis of the deposited data

Results flagged for a closer look

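In groups of 5 libraries, a value was singled out where its gap to the nearest other exceeded Dixon's 95% critical share of the group's range. Of 60 groups examined, 8 had such a value, 3 of them among the 18 groups of members. Chance gives about 5% only for independent, normally distributed values. The groups share the same libraries and TPM were used without logs, so these counts cannot show an excess. C2 reached 25.2 TPM in library 2 of the rmPRL group, whose other libraries lay between 8.50 and 12.7 TPM. C7 reached 2.13 TPM in saline library 4 (others 0.235 to 0.393 TPM) and 0.982 TPM in rmPRL library 2 (others 0.237 to 0.361 TPM). Masp1 reached 1.34 TPM in rmPRL library 2 (others 0.229 to 0.459 TPM). These 4 values lay in the libraries with high Cyp11a1, of which rmPRL library 2 was labelled diestrus, and the part of either in them was not tested. C1qc at 47.2 TPM and C3ar1 at 2.64 TPM in saline library 1 lay above 27.4 to 30.3 and 1.58 to 1.89 TPM. C4a reached 4.86 TPM in rmPRL library 4 (others 2.72 to 3.04 TPM), and Cd46 reached 5.09 TPM in rmPRL library 3 (others 3.28 to 3.79 TPM).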

How the results depend on the processing

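The count of members past the threshold was 0 under every alternative run, as was that of the other complement genes. With array weights 2 of the 8 tested members, C3 and C4b, had an unadjusted p under 0.05. The same pair did without saline library 1, and 1 member, C4b, did without rmPRL library 4. Of the 16131 tested genes, 4310, 3693 and 1809 had such a p in these settings, against 2588 in the main fit. Whether the members exceeded that background was not tested. The count of 4 genes past the adjusted threshold, among all genes, was 0 with no filter on low values and 270 with array weights. It was 0 with the fibroblast or with the macrophage score as a covariate, and 1 to 18 with single libraries left out. With the replicate number as a block it was 2, and the count of members past the threshold stayed at 0. C3 then kept a log2 difference of 0.20 (limma adjusted p = 0.374). Same-numbered libraries did not deviate together (r from -0.248 to 0.108). That cannot show whether the numbers pair the libraries, since libraries handled together need not deviate together.

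With the macrophage covariate the log2 differences turned to -0.089 for C4b, -0.22 for C1ra, -0.28 for C1s1, -0.095 for Cfb, -0.16 for Serping1, -0.000567 for C1qb, -0.067 for C1qc, -0.046 for Cfd, 0.12 for Cd55b and -0.084 for Vtn. With the fibroblast covariate they turned to -0.13 for C1ra, -0.19 for C1s1, -0.043 for Serping1, 0.060 for Cd55b and -0.082 for Vtn. Without both libraries with high steroid-making markers they turned to -0.014 for C1ra, -0.010 for C1s1 and -0.00890 for Vtn. The cause was not tested. With single libraries left out, the ranges that crossed 0 were -0.040 to 0.16 for C1ra, also when summed with C1rb, -0.10 to 0.19 for C1s1, -0.11 to 0.18 for C1s1 summed with C1s2, -0.28 to 0.082 for C7 and -0.099 to 0.097 for Vtn. The count of correlated pairs was 2 without both libraries with high steroid-making markers and 2 to 10 with single libraries left out. Since TPM keep no depth, low values such as those of C7 have no known counting error.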
